A study of Mus musculus with 6 samples.

Results

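The genes described here are 10 transcripts of club cells and other secretory cells of the airways: Scgb1a1, Scgb3a1, Scgb3a2, Cyp2f2, Aldh1a7, Cbr2, Bpifa1, Muc5b, Reg3g and Pigr. They were chosen by symbol, and all probe sets whose platform annotation names only 1 of these symbols were used, 11 of the 45101 on the array, for 10 of 18194 genes named by a probe set of their own. Pigr had 2 probe sets and each other gene 1. Lungs of 3 wild type mice given a high fat diet were compared with lungs of 3 given the control diet, also wild type, by total RNA on 1 Affymetrix array each. The sources used here do not state strain, age, sex or length of feeding. Whole lung was profiled, so a difference in the number of cells of a type and a difference in RNA per cell cannot be told apart.

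Club cells are dome-shaped, non-ciliated cells of the airway lining. They secrete small dimeric proteins, the secretoglobins, onto the airway surface, and they carry cytochrome P450 enzymes that oxidise inhaled chemicals. Secretory cells of the larger airways and glands add mucins and antimicrobial proteins, and they carry antibodies of the IgA class across the epithelium through a dedicated receptor.

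Signals are the authors' MAS5 intensities, and the trimmed mean computed from them was 500 on every array. A gene was called when its adjusted p from limma, taken over all 12689 genes tested, was under 0.05. A gene entered the test when the mean log2 signal of its brightest probe set reached 6.14, a signal of 70.3, and all 11 member probe sets did. Of all genes tested, 857 (6.75 percent) were called, 578 higher (4.56 percent) and 279 lower (2.2 percent) in high fat mice. With arrays centred on their medians, 3062 were called higher and 146 lower.

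Several arrays stood apart in genes of other tissues. The summed signal of 12 oesophagus markers was 4138, 2240 and 5197 in the high fat mice (replicates 1, 2 and 3), against 139493, 2678 and 4278 in the control mice, and all 12 were highest in control replicate 1. Krt4, a keratin of stratified epithelium, read 30382 there, against 28.9 to 281 on the other arrays. The summed signal of 10 cardiac muscle markers was 192650, 49149 and 76844 in high fat mice, against 53978, 23500 and 54398 in control mice. Of these, 9 were highest in high fat replicate 1. The summed adipocyte markers were 39432, 27914 and 29729 in high fat mice, against 3900, 4764 and 8298 in control mice. The groups did not overlap in these adipocyte sums. For the Gapdh control probes, the signal at the 3' end over that at the 5' end was 0.915 ± 0.054 in high fat and 0.768 ± 0.026 in control mice (SD, n = 3 each; two-sided exact permutation p = 0.1, which is the lowest value that 20 relabelings give). For Actb it was 1.52 ± 0.022 in high fat and 1.31 ± 0.122 in control mice (SD, n = 3 each), with the same exact permutation p. The median signal of an array was 113 to 129 in high fat mice and 143 to 150 in control mice. The part of these differences in the results on airway genes was not tested.

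Of the 10 genes, 1 was called higher in high fat mice and 0 were called lower. The gene called was Aldh1a7, an aldehyde dehydrogenase. At an unadjusted p under 0.05, 2 were higher and 0 lower, where 16.2 percent of all genes tested were higher and 9.29 percent lower. Among the 11 member probe sets, 1 was called higher, where 4.63 percent of all tested probe sets were called higher and 12.9 percent in either direction. The other 9 genes overlapped between the groups, and for 4 of them a single high fat mouse held the highest signal by at least 2.58-fold over the other 5. The median log2 difference of the 10 genes (high fat minus control) was 0.15, against 0.06 over all genes tested.

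**Figure D1:**
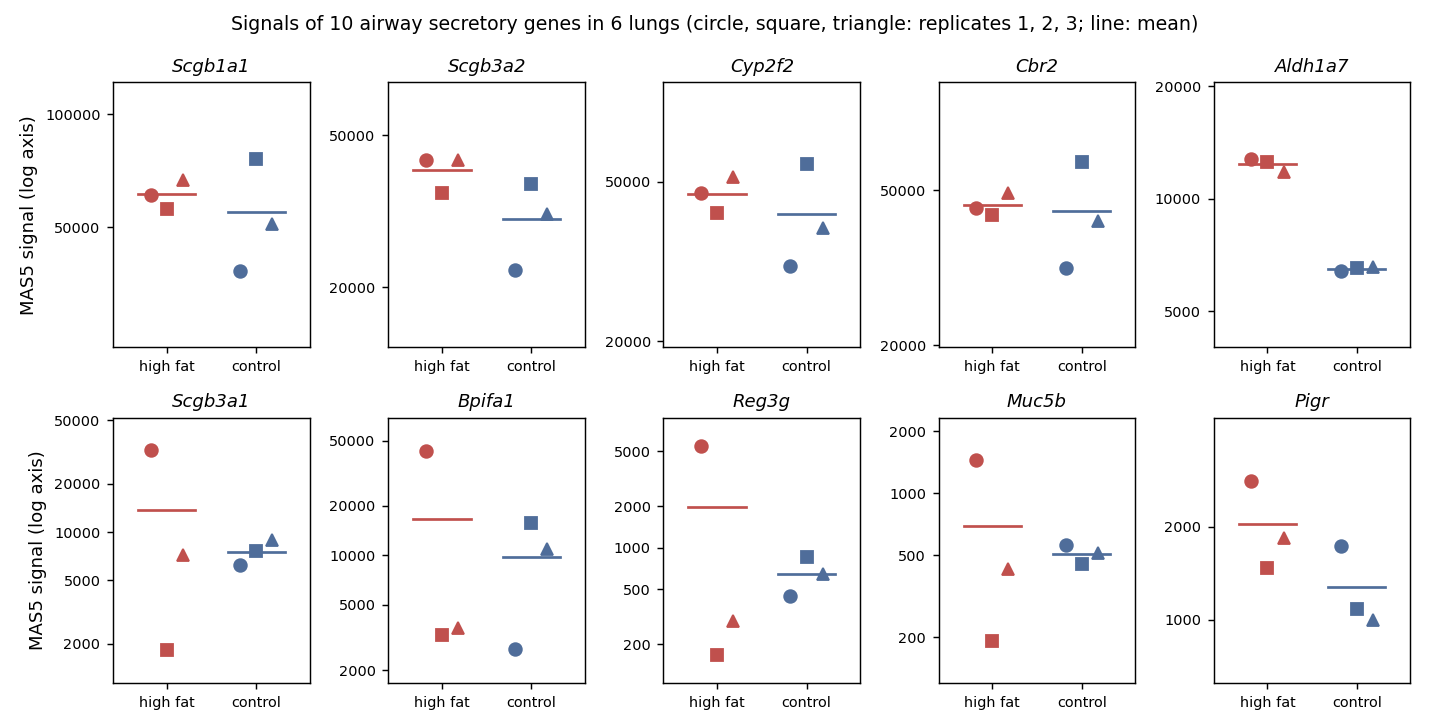
MAS5 signal (log axes) of the 10 genes in each lung, high fat on the left and control on the right of each panel. Circles, squares and triangles are replicates 1, 2 and 3, and lines are means of the linear signals. Aldh1a7 is the 1 panel where the groups do not overlap, and in Scgb3a1, Bpifa1, Reg3g and Muc5b the circle of high fat replicate 1 lies far above every other point.

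Aldh1a7 separated the diets with little spread inside either group. Its signal was 12806, 12539 and 11810 in high fat mice, against 6390, 6518 and 6567 in control mice. The values span 1.08-fold among high fat mice and 1.03-fold among control mice, and every high fat mouse lay above every control mouse, as was so for 19.7 percent of all genes tested (12.1 percent were lower without overlap). Means were 12385 ± 515 in high fat and 6492 ± 91 in control mice (SD, n = 3 each). The ratio was 1.91-fold (95% interval 1.62 to 2.25, limma adjusted p = 0.00374). The residual SD of 0.045 on the log2 scale was smaller than that of 99.3 percent of genes, where the median was 0.21. The call held in all 6 fits with 1 mouse left out (adjusted p up to 0.0287) and without replicate 1 of both groups (log2 difference 0.90, adjusted p = 0.0226).

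Aldh1a7 belongs to the class 1 family of cytosolic aldehyde dehydrogenases and is a close paralog of Aldh1a1, which oxidises retinal to retinoic acid. Whether the Aldh1a7 probes also bind Aldh1a1 transcripts was not tested, so the assignment to Aldh1a7 alone is uncertain. The signal of the Aldh1a1 probe set was 28620, 25615 and 24349 in high fat mice, against 16288, 21645 and 21495 in control mice. These groups did not overlap either, but the ratio of 1.33-fold was not called (limma adjusted p = 0.140). The genes whose profile over the 6 arrays lay closest to that of Aldh1a7 were Nop10, Thsd4 and Zbtb42, with root mean square differences of 0.054, 0.057 and 0.06 between centred log2 signals. All 3 were higher in each high fat mouse than in any control mouse, which follows from their choice by closeness to Aldh1a7.

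The promoter of Aldh1a7 is shown because it is the called member. It is the RefSeq sequence of build GRCm38.p6, chr19:20727507-20727806, minus strand, from 250 bases before the gene's first base, with 50 bases from that base on. Capitals mark matches on either strand to any of 5 motifs. These are the TATA box, spelled TATAAA, the site of the lung factor NKX2-1, spelled CTTGAG, that of forkhead factors, spelled TGTTTNC, that of ETS factors, spelled GGAAGT, and the antioxidant response element, spelled TGACNNNGC.
Aldh1a7: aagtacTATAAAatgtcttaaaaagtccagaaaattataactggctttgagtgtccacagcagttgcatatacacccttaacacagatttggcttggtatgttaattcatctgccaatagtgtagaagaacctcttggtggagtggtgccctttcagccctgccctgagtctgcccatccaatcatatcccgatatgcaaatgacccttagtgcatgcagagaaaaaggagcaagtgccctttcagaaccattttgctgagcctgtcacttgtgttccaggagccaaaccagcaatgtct
The single match, a TATAAA far upstream at position -244 (the gene's first base is 0), is a motif held by 13.6 percent of 32851 promoter windows of the same length.

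The 4 members with the highest signals showed no difference by diet beyond the spread of the mice. Scgb1a1, the main secretoglobin of club cells, read 60893, 55959 and 66963 in high fat mice, against 38296, 75983 and 50874 in control mice. The 3 high fat values lie inside the control range. The ratio was 1.16-fold with a 95% interval of 0.79 to 1.69 (limma adjusted p = 0.632).

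Cyp2f2, the cytochrome P450 that bioactivates naphthalene in mouse club cells, read 46856, 41651 and 51184 in high fat mice, against 30845, 55242 and 38194 in control mice (1.15-fold, 95% interval 0.819 to 1.63, limma adjusted p = 0.599). Cbr2, a lung carbonyl reductase, read 45127, 43332 and 49307 in high fat mice, against 31590, 59165 and 41727 in control mice (1.07-fold, 0.756 to 1.52, limma adjusted p = 0.81). For both, as for Scgb1a1, control replicate 1 was the lowest and control replicate 2 the highest of all 6 arrays. Scgb3a2, a secretoglobin of the small airways, read 43071, 35372 and 43068 in high fat mice, against 22230, 37362 and 31111 in control mice (1.36-fold, 0.991 to 1.88, limma adjusted p = 0.207). It was the nearest to a difference among these 4 genes, and was called when arrays were centred on their medians (log2 difference 0.72, adjusted p = 0.0296), a scaling that moved the median of all genes to 0.33. Its log2 difference was 0.20 without replicate 1 of both groups, against 0.45 with all mice (limma adjusted p = 0.582).

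The order of the control mice in these bright probe sets was shared with genes of other functions. Scgb1a1, Scgb3a2, Cyp2f2 and Cbr2 are 4 of the 100 brightest probe sets, whose median signal was 27805, 30274 and 29827 on the high fat arrays, against 21712, 30917 and 25945 on the control arrays. Control replicate 1 was lowest and control replicate 2 highest there too. Actb, a cytoskeletal actin, read 38954, 38473 and 41264 in high fat mice, against 26977, 48218 and 35263 in control mice. With each signal divided by that median of its array, the log2 differences were 0.03 for Scgb1a1, 0.03 for Cyp2f2, -0.07 for Cbr2 and 0.27 for Scgb3a2. The probe set of Scgb1a1 had the highest signal on every array, so quantile normalization sets it to 1 value and cannot show any difference.

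**Figure D2:**
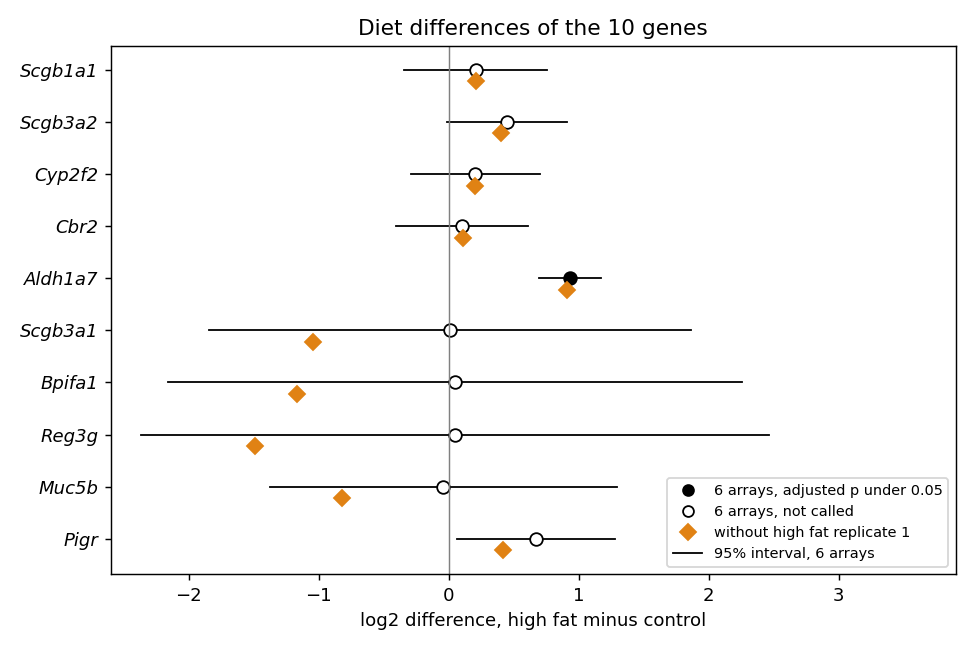
Log2 differences (high fat minus control) of the 10 genes. Circles are the fit over 6 arrays, filled for the 1 gene with an adjusted p under 0.05, with 95% intervals as lines, and diamonds are the fit without high fat replicate 1. The intervals of Scgb3a1, Bpifa1, Reg3g and Muc5b are the widest, and their diamonds lie between -1.49 and -0.82.

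The antimicrobial and mucous genes varied between high fat mice far more than between diets. Reg3g, a secreted lectin that kills Gram-positive bacteria, read 5442, 169 and 297 in high fat mice, against 447, 854 and 649 in control mice. High fat replicate 1 was above and the other 2 high fat mice below all control mice. The signals span 32.3-fold among high fat mice and 1.91-fold among control mice. Bpifa1, a lipid-binding protein of the upper airway lining with antibacterial activity, read 42997, 3290 and 3607 in high fat mice, against 2682, 15700 and 10930 in control mice. Here control replicate 1 was the lowest of all 6.

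Scgb3a1, a secretoglobin of the larger airways, read 32456, 1824 and 7191 in high fat mice, against 6224, 7566 and 8898 in control mice. Muc5b, the gel-forming mucin that clears the airways, read 1456, 192 and 429 in high fat mice, against 563, 454 and 513 in control mice. In both genes high fat replicate 1 was the highest and high fat replicate 2 the lowest of the 6 mice. Residual SDs on the log2 scale were 1.93 for Reg3g, 1.77 for Bpifa1, 1.48 for Scgb3a1 and 1.05 for Muc5b, and at most 1.84 percent of genes tested had a larger one than each of these.

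Means for Reg3g were 1969 ± 3008 in high fat and 650 ± 204 in control mice, and for Scgb3a1 13824 ± 16358 in high fat and 7563 ± 1337 in control mice (SD, n = 3 each). In both genes the high fat SD exceeded the high fat mean. On the log2 scale the differences over all 6 arrays were 0.047 for Reg3g, 0.050 for Bpifa1, 0.0077 for Scgb3a1 and -0.043 for Muc5b (limma adjusted p = 0.984, 0.981, 0.996 and 0.973). The 95% intervals are wide, from 0.194-fold to 5.51-fold for Reg3g and from 0.385-fold to 2.45-fold for Muc5b, so they hold large changes in either direction. Without high fat replicate 1 the log2 differences were -1.49, -1.16, -1.05 and -0.82. Reg3g was then called lower (limma adjusted p = 0.0453) and the others were not (0.298, 0.229 and 0.168). That mouse held the highest signal of each of these genes, so lower differences follow from leaving it out. This fit called 155 of 12689 genes lower, and Reg3g was called in 1 of 6 fits with 1 mouse left out. Without replicate 1 of both groups, Bpifa1 (log2 difference -1.93, limma adjusted p = 0.00836) and Reg3g (-1.73, limma adjusted p = 0.0357) were called lower. That fit was chosen after these values were seen and called 81 of 12689 genes lower. It leaves out the highest and the lowest Bpifa1 signals, those of high fat replicate 1 and control replicate 1, so these calls are no independent evidence. Muc5b kept its sign without high fat replicate 1 and was at 0.64 without high fat replicate 2.

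High fat replicate 1 was set against the other 5 arrays over all genes, a choice made after its values were seen. It exceeded every other array at least 3-fold in 25 of 12689 genes (0.197 percent), 2 of them members, Reg3g and Scgb3a1. It did so at least 2-fold in 113 genes (0.891 percent), which include these and also Bpifa1 and Muc5b. Reg3g had the largest excess of all genes, 6.37-fold over the next array, followed by Ltf, the iron-binding antimicrobial protein lactoferrin (5.51-fold), and Bpifb1, a secreted relative of Bpifa1 (4.99-fold). The next places were mostly heart muscle genes, among them Ryr2 (4.06-fold) and Nppa (3.93-fold). Other listed secreted genes went both ways. The protease inhibitor Wfdc2 (24560) and the trefoil peptide Tff2 (386) were also highest in high fat replicate 1. The protease inhibitor Slpi read 1754 there, against 14419 in control replicate 1, the mouse with the highest oesophagus markers. The iron-scavenging Lcn2 read 2331 in high fat replicate 1, against 4306 in high fat replicate 2. Of the 22 tested airway secretory and mucous genes outside the members, 9 were highest in high fat replicate 1 (40.9 percent, against 22.8 percent of all genes tested). Ltf is also a neutrophil granule protein, and the part of neutrophils in its signal was not tested. The neutrophil genes S100a9 (807, 813 and 1342 in high fat mice, against 2452, 2498 and 7938 in control mice) and Mmp8 were not highest in that mouse, and both were called lower in high fat mice (limma adjusted p = 0.0334 and 0.0322).

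**Figure D3:**
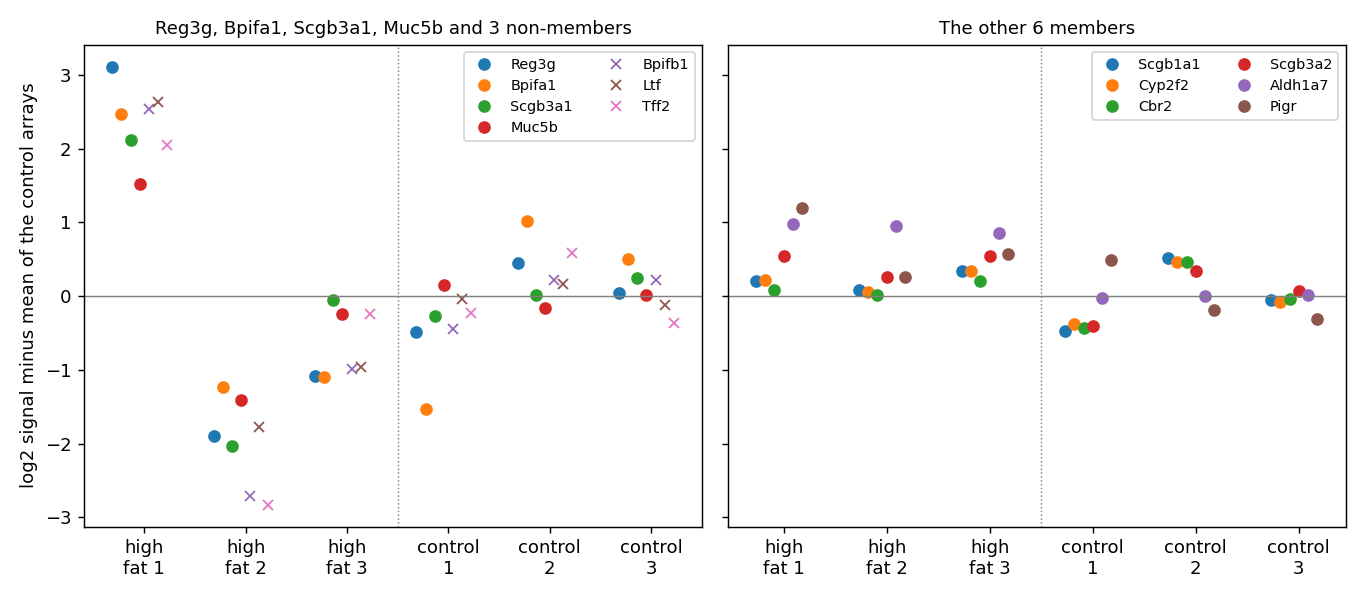
Log2 signal of each gene minus its mean over the control arrays, for each of the 6 mice, high fat on the left. In the left panel circles are members and crosses are Bpifb1, Ltf and Tff2, and all 7 genes are highest in high fat replicate 1. All of them except Bpifa1 are lower in high fat replicate 2 than in any control mouse. In the right panel the other 6 members stay closer to 0, with Aldh1a7 near 1 in the 3 high fat mice.

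The genes closest in profile to these members include other members and listed airway secretory genes. For Reg3g they were Ltf, Bpifb1 and Scgb3a1, with root mean square differences of 0.305, 0.367 and 0.623 between centred log2 signals over 6 arrays. For Scgb3a1 they were Muc5b, Steap1 and Tff2 (0.418, 0.428 and 0.446), where Tff2 is a trefoil peptide secreted with mucus. For Bpifa1 they were A2ml1, Reg3g and Ltf (0.569, 0.641 and 0.778). For Muc5b they were Steap1, the water channel Aqp4 and Gdpd2 (0.159, 0.187 and 0.189). Bpifb1 read 13087, 342 and 1130 in high fat mice, against 1655, 2622 and 2618 in control mice, the same order of high fat mice as Reg3g, Bpifa1, Scgb3a1 and Muc5b. Ltf had a log2 difference of -0.035 over all mice. Without high fat replicate 1, the mouse with its highest signal, Ltf was called lower (-1.37, limma adjusted p = 0.0228). It was called in 1 of 6 fits with 1 mouse left out.

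Ciliated cell markers, like Reg3g, Bpifa1, Scgb3a1 and Muc5b, were mostly highest in high fat replicate 1. This held for 16 of 18 tested, all but Dnah5 and Dnah11, where 22.8 percent of all genes tested were highest in that mouse. It also held for 8 of 8 tested adipocyte markers and 9 of 10 cardiac muscle markers. The ciliated markers exceeded the next mouse by at most 1.72-fold, against at least 2.58-fold for Reg3g, Bpifa1, Scgb3a1 and Muc5b. The summed signal of the ciliated markers was 101112, 81908 and 81414 in high fat mice, against 67229, 85418 and 74296 in control mice. Foxj1, a master regulator of motile cilia, read 1361, 585 and 909 in high fat mice, against 516, 437 and 364 in control mice. Of 15 cartilage markers 14 had a probe set and 1 was bright enough to be tested, Cytl1, with 930, 450 and 551 in high fat mice, against 412, 523 and 1176 in control mice. Their summed signal was 1512, 993 and 1228 in high fat mice, against 776, 1244 and 2070 in control mice, and Col2a1, the defining collagen of cartilage, read between 3.97 and 18.9 on all arrays. The basal cell keratin Krt5 read 140, 91.2 and 125 in high fat mice, against 1622, 111 and 58.4 in control mice. It was highest in control replicate 1, the mouse with the highest oesophagus markers. The part of these cell types in the values of Reg3g, Bpifa1, Scgb3a1 and Muc5b was not tested.

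The promoters of 3 members that varied together are shown, from the same RefSeq table and window, with capitals for the same 5 motifs. They lie at chr6:78468825-78469124 on the minus strand (Reg3g), chr2:154142630-154142929 on the plus strand (Bpifa1) and chr11:49663345-49663644 on the plus strand (Scgb3a1).
Reg3g: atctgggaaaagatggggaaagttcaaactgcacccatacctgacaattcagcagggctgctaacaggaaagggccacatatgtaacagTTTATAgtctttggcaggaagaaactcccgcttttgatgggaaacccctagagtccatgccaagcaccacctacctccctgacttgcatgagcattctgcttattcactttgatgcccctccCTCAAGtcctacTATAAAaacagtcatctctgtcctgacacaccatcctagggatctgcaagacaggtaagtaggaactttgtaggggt
Bpifa1: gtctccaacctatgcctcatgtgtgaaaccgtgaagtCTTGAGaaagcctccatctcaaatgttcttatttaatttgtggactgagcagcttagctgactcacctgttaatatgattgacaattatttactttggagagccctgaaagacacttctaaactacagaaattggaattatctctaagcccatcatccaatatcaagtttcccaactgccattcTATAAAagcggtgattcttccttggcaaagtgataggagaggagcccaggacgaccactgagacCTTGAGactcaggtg
Scgb3a1: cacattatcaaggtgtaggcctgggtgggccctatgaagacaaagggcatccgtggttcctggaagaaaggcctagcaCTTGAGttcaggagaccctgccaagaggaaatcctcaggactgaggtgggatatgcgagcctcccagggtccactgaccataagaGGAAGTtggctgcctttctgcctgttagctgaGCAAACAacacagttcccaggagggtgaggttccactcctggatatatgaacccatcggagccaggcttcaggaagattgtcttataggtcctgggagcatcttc
CTTGAG was found in all 3, and in these alone of the 7 members whose promoters were searched, against 15.9 percent of all windows. Scgb3a2 was not among those searched, so whether it holds CTTGAG was not tested. Reg3g and Bpifa1 hold a TATAAA just upstream of the start, at positions -27 and -29, and Scgb3a1 holds none in either orientation. Scgb3a1 also holds TGTTTNC (20.5 percent of all windows) and GGAAGT (23.8 percent). The motifs were chosen with the sequences in view, and a match describes letters, not binding.

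Pigr, the receptor that carries polymeric IgA through the epithelium to the airway surface, had a higher mean signal in high fat mice without passing the test. Its brighter probe set read 2818, 1471 and 1834 in high fat mice, against 1729, 1084 and 997 in control mice. Only control replicate 1 overlaps the high fat mice, since it lies above high fat replicate 2. The ratio was 1.6-fold (95% interval 1.05 to 2.43, limma adjusted p = 0.159). It was called with arrays centred on their medians (log2 difference 0.95, adjusted p = 0.0292) and with the replicate block (adjusted p = 0.0338). The second probe set of Pigr read 2523, 1153 and 2103 in high fat mice, against 1319, 829 and 656 in control mice, a ratio of 2.04-fold with an adjusted p of 0.0672 over all probe sets. Both probe sets point the same way and were highest in high fat replicate 1. Without that mouse the log2 difference of the brighter one was 0.41, against 0.67 with it. Its closest profiles were those of Apod, a lipid-binding lipocalin, Prr18 and Plxna3, with root mean square differences of 0.107, 0.110 and 0.116.

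Genes of the antibody that Pigr carries had their highest signals in 2 control mice. Jchain, the joining chain that Pigr recognises on polymeric IgA, read 6157, 2631 and 1908 in high fat mice, against 18034, 33001 and 3130 in control mice. The IgA heavy chain Igha, named here as the cargo after its values were seen, read 5937, 7138 and 8475 in high fat mice, against 20330, 27065 and 4648 in control mice. Control replicates 1 and 2 were high in both, and control replicate 3 lay among the high fat mice for Jchain and below them for Igha. Jchain was not called (limma adjusted p = 0.153). Of 9 tested genes of IgA and plasma cells, 0 were called in either direction by limma, with 1 higher and 3 lower at an unadjusted p under 0.05 (median log2 difference -0.71). At that unadjusted p, 16.2 percent of all genes tested were higher and 9.29 percent lower.

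Other genes of club cells include 6 that were higher in high fat mice. Of 25 tested genes from a list of 30, 6 were called higher and 0 lower (24 percent higher, against 4.56 percent of all genes; median log2 difference 0.32, against 0.06). Nupr1, a stress-induced chromatin protein, read 11902, 9835 and 7817 in high fat mice, against 3287, 4984 and 4214 in control mice (2.37-fold, limma adjusted p = 0.0119). Cckar, the receptor for cholecystokinin, was 1.73-fold higher, the extrahepatic cytochrome P450 Cyp2s1 1.8-fold, the mitochondrial sulfurtransferase Tst 1.68-fold, the GABA receptor subunit Gabrp 1.63-fold and the haemoglobin-binding protein Hp 1.51-fold (limma adjusted p = 0.0149, 0.0273, 0.0294, 0.0361 and 0.0329). None of these 6 overlapped between the groups. Of the 25 tested, 11 were higher without overlap and 0 lower, where 19.7 percent of all genes tested were higher and 12.1 percent lower without overlap. With 1 mouse left out, 0 to 5 genes of this list were called, 0 without control replicate 3 (11 at an unadjusted p under 0.05). Nupr1 and Cckar were called in 5 of 6 such fits and Hp in 0. Without replicate 1 of both groups, 2 were called higher, Nupr1 and Cyp2s1, and 1 lower. Of the 25, 16 were highest in high fat replicate 1 (64 percent, against 22.8 percent of all genes tested).

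Beside the called Cyp2s1, this list holds enzymes of foreign compounds that were not called. Cyp4b1, a cytochrome P450 of lung, read 20471, 21568 and 21600 in high fat mice, against 16881, 24298 and 22214 in control mice. The flavin monooxygenase Fmo2 read 12712, 18973 and 15030 in high fat mice, against 12227, 16091 and 17122 in control mice. Their ratios were 1.02-fold (95% interval 0.793 to 1.30) and 1.02-fold (0.765 to 1.37), and those of the glutathione transferases Gsta3 and Gstm1 were 0.955-fold (0.736 to 1.24) and 1.04-fold (0.805 to 1.34). Cyp4b1, Fmo2, Gsta3 and Gstm1 were picked from the list after their values were seen and do not stand for all its enzymes.

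Of 22 tested airway secretory and mucous genes from a list of 35, 4 were called higher and 0 lower (18.2 percent higher, against 4.56 percent of all genes; median log2 difference 0.37). They were Cftr, the chloride channel (392 ± 54.7 in high fat and 197 ± 41 in control mice, SD, n = 3 each; 2.01-fold), Wfdc2, a secreted protease inhibitor (1.6-fold), Retnla, a resistin-like protein (3.92-fold), and Slc26a4, the anion exchanger pendrin (4.46-fold), with limma adjusted p of 0.0309, 0.0338, 0.0396 and 0.0452. When the probe sets of a gene were averaged, Cftr stood at a log2 difference of -0.15. Retnla read 8078, 9127 and 17055 in high fat mice, against 6136, 1883 and 1813 in control mice, so control replicate 1 was near the high fat mice. The goblet cell genes Muc5ac, Agr2, Spdef, Foxa3 and Clca1 did not reach the signal needed to be tested. With 1 mouse left out, 0 to 3 genes of this list were called, 0 without control replicate 2, control replicate 3 or high fat replicate 3 (8, 7 and 9 at an unadjusted p under 0.05). Slc26a4 was called in 2 of 6 such fits, Cftr and Retnla in 1 each and Wfdc2 in 0. Retnla and Slc26a4 were called higher and Ltf lower without replicate 1 of both groups.

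**Figure D4:**
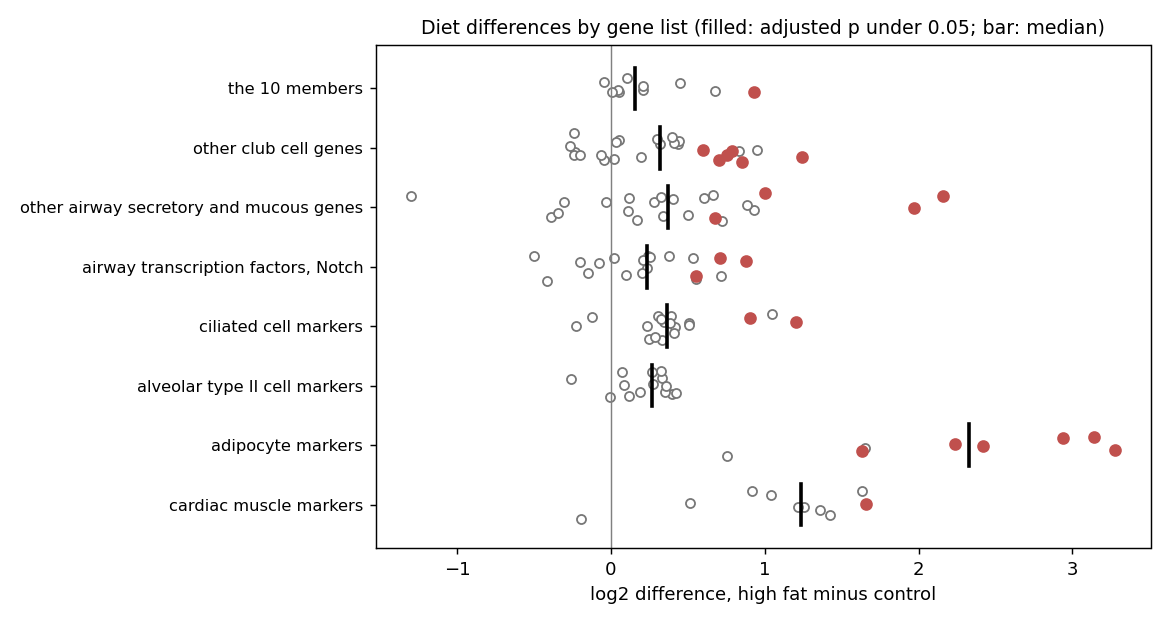
Log2 differences (high fat minus control) of every tested gene by list, filled where the adjusted p was under 0.05, with the list's median as a bar. Medians of the members and of the club, secretory, transcription factor, ciliated and alveolar lists lie between 0.15 and 0.37, and those of adipocyte and cardiac muscle markers at 2.33 and 1.24. The 2 tested basal cell markers, with a median of -0.81, are not drawn.

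Of 19 airway transcription factors and Notch genes, 3 were called higher and 0 lower (median 0.24, against 0.06 over all genes). These 3 are 15.8 percent of the list, where 4.56 percent of all genes tested were called higher. The called genes were Sox2, a factor of the conducting airways (1372, 944 and 1008 in high fat mice, against 712, 549 and 539 in control mice; 1.84-fold), the receptor Notch2, which promotes the secretory fate (1.63-fold), and the pioneer factor Foxa1 (1.47-fold), with limma adjusted p of 0.0283, 0.0395 and 0.0484. With probe sets averaged, Notch2 was at a log2 difference of 0.11 (limma adjusted p = 0.873). Sox2 was called in 2 of 6 fits with 1 mouse left out, and Notch2 and Foxa1 in 1 each. Of 18 ciliated cell markers, the dynein light chain Dynlrb2 (2.3-fold) and the cilium protein Cfap126 (1.87-fold) were called higher (limma adjusted p = 0.0149 and 0.0176; median 0.36). They are 11.1 percent of that list, and 0 were called lower. Dynlrb2 read 8280 and Cfap126 3877 in high fat replicate 1, the highest of the 6 mice for both. With 1 mouse left out they were called in 4 and 3 of 6 fits. Without replicate 1 of both groups, Sox2 and Dynlrb2 were called (limma adjusted p = 0.0467 and 0.0250), and Notch2, Foxa1 and Cfap126 were not (0.113, 0.196 and 0.0561). Of 14 alveolar type II cell markers limma called 0, with 5 higher and 0 lower at an unadjusted p under 0.05 (median 0.27). Over all genes tested, 16.2 percent were higher and 9.29 percent lower at that unadjusted p. Whether the members differ from these lists was not tested.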

How the data were processed

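Total lung RNA of 6 mice was measured on 6 Affymetrix arrays. The deposited values are intensity values made with MAS5 by the authors, per the submitters' processing notes, with version and settings not given in the sources used here. They are linear, and each array's mean after trimming 2 percent at both ends was 500. Because MAS5 works with mismatch probes, low signals are imprecise. Their precision is limited by the 3 arrays per group. Since nothing further is said of the animals, p-values measure only the spread between these mice. Limma moderated the spread of each gene toward that of genes of similar signal.

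Symbols came from the platform annotation. All 11 member probe sets matched a RefSeq gene of GRCm38.p6 by Entrez identifier, with 0 symbols changed. Values under 1 were raised to 1 before taking log2. Of 45101 probe sets, 64 controls were left out, and 27022 at or above the 40th percentile of mean log2 signal were fitted with limma 3.58.1 in R 4.3.3 (lmFit, eBayes with trend, two-sided). Benjamini-Hochberg adjustment ran over 12689 genes, each by its brightest probe set. The fit was also run on simulated data with independent noise for each value. That simulation held no effects shared across an array, so it does not give the error rate here. Folds are 2 to the log2 difference, while means and SDs are of linear signals.

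The members, lists and tests were chosen with earlier results of these data known. Named are the members, called list genes and up to 4 more per list by smallest p, and the 3 nearest profiles of members spanning at least 2-fold. Cyp4b1, Fmo2, Gsta3, Gstm1, Slpi, Lcn2, Col2a1, Cytl1, Krt5, Ryr2, Nppa, Bpifb1 and Ltf were singled out after their values were seen. Promoters are RefSeq sequences of GRCm38.p6, used for 7 of 10 members. None was found for Scgb1a1 or Muc5b, and Scgb3a2, on chromosome 18, was left out of the search.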

Additional observations from a re-analysis of the deposited data

How the results depend on the processing

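The count of members called, 1, was the same with quantile normalization, 32 added before log2, no filter, a stricter filter (60th percentile), no trend, robust estimation, array weights and averaged probe sets. Aldh1a7 was called in every alternative run (log2 difference 0.78 to 1.21). With arrays centred on their median, 3 members, 4 member probe sets, 3208 of all genes, 14 other club cell genes and 9 other secretory genes were called, with the median of all genes at 0.33, against 0.06 in the reported fit. Of these 3208, 3062 were higher, against 578 of 857. Without trend, 136 of all genes and 0 genes of either other list were called (10 and 6 at an unadjusted p under 0.05). With averaged probe sets, 471 of all genes and 0 other secretory genes were called (7 at an unadjusted p under 0.05), and Cftr turned to -0.15. Without replicate 1 of both groups, an alternative chosen after seeing the data, 3 members, 3 member probe sets, 307 of all genes and 3 other club cell genes were called, against 857 of all genes with 6 mice. With 1 mouse left out, 1 to 2 members, 1 to 2 member probe sets, 160 to 566 of all genes, 0 to 5 other club cell genes and 0 to 3 other secretory genes were called. Same-numbered mice of the 2 groups deviated with correlations of 0.167, 0.108 and -0.041 across probe sets, so the numbers were not taken as pairs. With the replicate block, 2 members, 3 member probe sets and 2 other secretory genes were called. Pigr was called with the block (adjusted p = 0.0338).

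Differences near 0 changed sign. Quantile normalization gave -0.080 for Scgb3a1, -0.066 for Cbr2, -0.024 for Bpifa1 and 0.053 for Muc5b. Median centring gave 0.23 for Muc5b and 0.24 for Ltf. With 32 added, Ltf was at 0.0049 and Tff2 at 0.016. Array weights gave -0.30 for Scgb3a1, -0.21 for Bpifa1 and -0.25 for Reg3g. Without replicate 1 of both groups, Scgb1a1 was at -0.022, Scgb3a1 at -1.18, Cbr2 at -0.10, Bpifa1 at -1.93 and Reg3g at -1.73. With 1 mouse left out, Scgb1a1 ran from -0.025 to 0.47, Scgb3a1 from -1.05 to 1.03, Cbr2 from -0.12 to 0.34, Bpifa1 from -1.16 to 0.69, Muc5b from -0.82 to 0.64, Reg3g from -1.49 to 1.02, Ltf from -1.37 to 0.83, Bpifb1 from -1.86 to 0.77 and Tff2 from -1.54 to 0.90. Their causes were not tested. The exact permutation p of both control ratios stayed 0.1 on the log2 scale. The 3 mice per group limit all of these values, and low signal limits those of Tff2.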
